A study of Mus musculus with 6 samples.

Results

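Gasdermins were followed across cultured mouse keratinocytes that differed in Ovol1 and Ovol2, a pair of zinc finger transcription factors of epithelia. The list held 8 genes by symbol, namely Gsdma, Gsdma2, Gsdma3, Gsdmc, Gsdmc2, Gsdmc3, Gsdmc4 and Gsdmd, out of 19938 genes measured in all. A gene counted as measured when at least 1 probe set of the array carried its symbol and no other, and 7 of the 8 did. Gsdmc3 appeared only on a probe set annotated jointly to Gsdmc2, Gsdmc3 and Gsdmc4. Where a gene has several such probe sets, its values are those of the one chosen by the highest mean over the 6 arrays, but each measured gasdermin had only 1. The list itself was drawn up with earlier results of these arrays known, among them the level of Gsdmc. Each adjusted p of a gasdermin is therefore its place among all genes and not independent evidence.

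The 6 arrays fell into 3 groups of 2, and each array held RNA pooled from 2 C57BL/6 mice of age E18.5. The Ovol1/2 double knockout (DKO) group was Ovol2flox/-;K14-Cre; Ovol1-/-, so 1 Ovol2 allele was lost throughout and the floxed one was removed only where the keratin 14 promoter drove Cre, that is in basal keratinocytes and their progeny, on a background without Ovol1. The Ovol1 KO group was Ovol1-/-. The control group was Ovol2flox/+; Ovol1+/- or Ovol2flox/+;K14-Cre, so control mice carried a floxed Ovol2 allele, either with 1 lost Ovol1 copy or with the Cre transgene. Where Cre was carried, it would remove that floxed allele in the same cells as in DKO, leaving 1 Ovol2 allele. The titles of the control arrays do not tell these genotypes apart. Keratinocytes isolated from skin grew for 2 to 5 days and then for 3 to 5 days with calcium, which drives their differentiation. Littermates shared cages, all samples are labelled female, and the arrays of a group are labelled biological replicates.

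Gasdermins are pore-forming proteins. Their amino-terminal part is held silent by the carboxy-terminal part until a protease cuts between them. The freed part inserts into membranes, lets cytokines such as interleukin 1 beta and interleukin 18 out of the cell, and can end in the lytic death called pyroptosis. Mice carry several copies of Gsdma and of Gsdmc where humans carry a single gene of each. Gsdma genes are known from skin, hair follicles and the upper gut, and mutations of Gsdma3 cause hair loss in mice. Gsdmc2, Gsdmc3 and Gsdmc4 are known from mouse intestinal epithelium. GSDMD is the substrate of the inflammatory caspases.

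The 3 Gsdma copies lie side by side on chromosome 11 and the Gsdmc copies side by side on chromosome 15, which also holds Gsdmd elsewhere. Promoter windows from RefSeq (GRCm38.p6) matched 2 of the 8 genes, Gsdma3 and Gsdmc3. The Gsdma3 window is shown because the Gsdma copies moved together across the arrays, as described below. It covers chr11:98626099-98626398 on the plus strand, and capitals mark the 50 bases after the annotated start, which follow 250 bases before it.
Gsdma3: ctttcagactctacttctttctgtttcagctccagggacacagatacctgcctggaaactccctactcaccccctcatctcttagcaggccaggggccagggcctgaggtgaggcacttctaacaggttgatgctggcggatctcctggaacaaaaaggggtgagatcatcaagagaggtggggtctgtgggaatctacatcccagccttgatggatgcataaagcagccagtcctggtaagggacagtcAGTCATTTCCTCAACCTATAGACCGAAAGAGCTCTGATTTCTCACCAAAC
The letters CCGTTA, the core that ovo proteins bind, were searched on both strands (TAACGG on the other), and 2.76% of 32851 windows of 300 bases hold them. The E-box CACCTG, bound by Zeb1, was searched likewise (CAGGTG on the other strand), and 20.2% of the windows hold it. Neither motif overlaps the other. Each had 0 matches in the Gsdma3 window and 0 in the Gsdmc3 window, which says only that these letters are not in those windows.

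Intensities below are given as log2(intensity + 16) after quantile normalization over the arrays. On this scale the lower quartile of genes lay at 6.87, the median at 8.22 and the upper quartile at 9.90. The table has no detection call. Probe sets for absent RNA differ in brightness, as sex-linked genes show. Xist, transcribed in female cells only, lay at 12.12 and 12.26 in the DKO arrays, 4.59 and 11.97 in Ovol1 KO 1 and Ovol1 KO 2, and 4.71 and 4.65 in the control arrays. The Y-linked gene Kdm5d still read 7.53 and 7.64 in the DKO arrays and 7.50 in Ovol1 KO 2, against 14.70 in the other 3 arrays. On DKO 1, DKO 2 and Ovol1 KO 2 the Y-linked Eif2s3y read lower, at 5.28, 5.48 and 5.19. Uty, also Y-linked, read 5.02, 4.885 and 5.23 there. The female label thus holds for 3 arrays and goes against Xist and Kdm5d in the other 3. DKO and control arrays differ in Xist as they do in genotype, so these cannot be told apart between them. The probe sets of Ovol1 (10.58 and 10.59 in DKO, 10.53 and 10.22 in Ovol1 KO, 10.27 and 9.85 in control) and Ovol2 (8.71 and 8.32 in DKO, 9.00 and 8.99 in Ovol1 KO, and 8.12 and 8.82 in control) passed in no comparison. Whether they lie in the deleted parts is not given in the sources used here, so they check no label. The basal keratins Krt5 and Krt14 lay between 13.61 and 13.94 on every array, as the keratinocyte label implies.

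**Figure D1:**
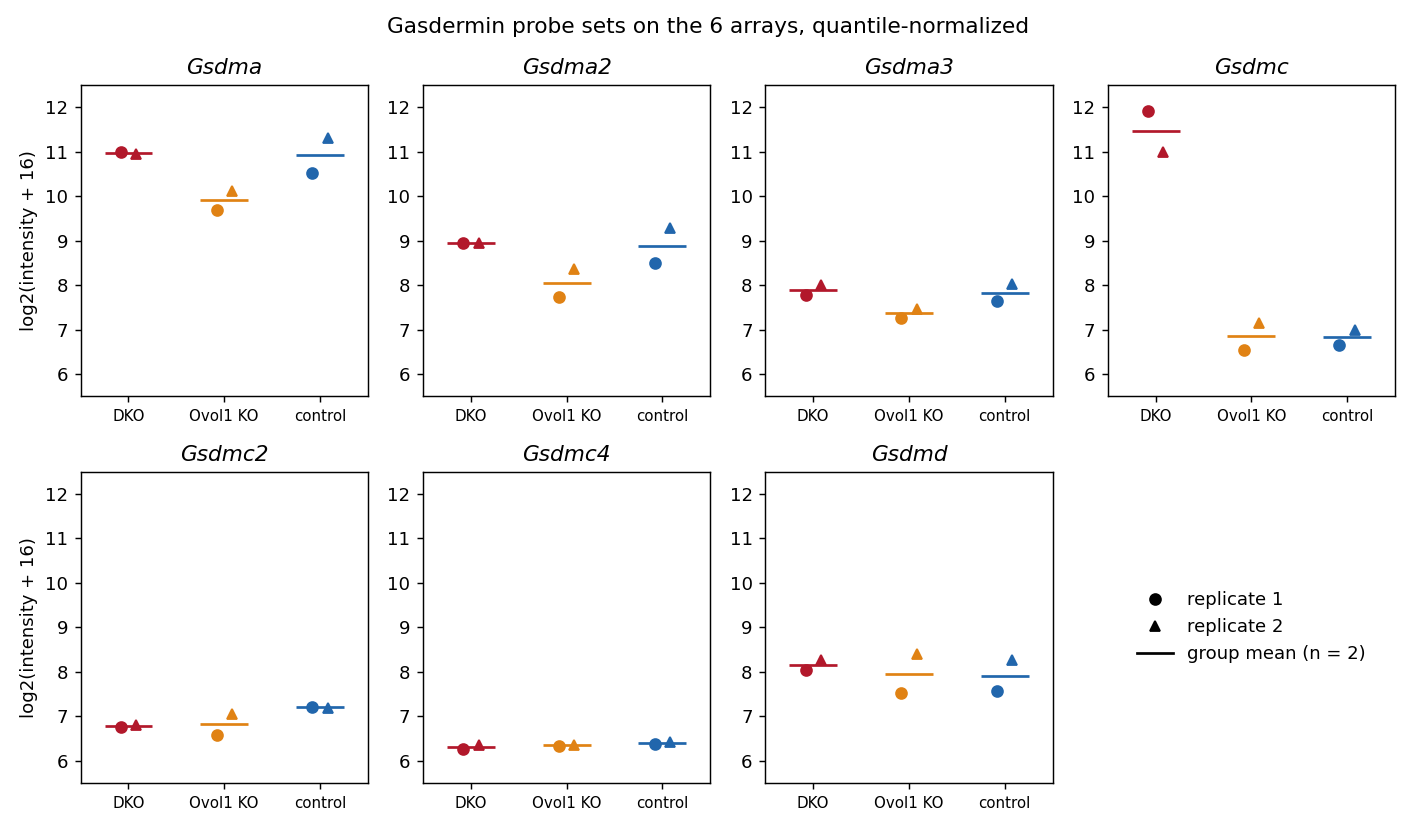
Each panel plots a gasdermin gene as log2(intensity + 16), quantile-normalized, on the 2 arrays of the DKO, Ovol1 KO and control groups, with circles for replicate 1, triangles for replicate 2 and a line for the group mean. Gsdmc stands at 11.91 and 11.00 in DKO and between 6.55 and 7.15 elsewhere, while Gsdma, Gsdma2 and Gsdma3 are lowest in the Ovol1 KO arrays.

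Between DKO and control keratinocytes, Gsdmc rose and the other gasdermins did not pass the test. Gsdmc lay at 11.91 and 11.00 in the DKO arrays, against 6.65 and 6.99 in the control arrays. In the deposited linear intensities this was 3831 and 1952 in DKO, against 78.9 and 113 in control. Both DKO arrays were above every other array, by far more than the 0.91 that separated them from each other. The mean was 11.46 ± 0.64 in DKO and 6.82 ± 0.24 in control (SD, n = 2 each), a log2 fold change of 4.64 (SE 0.35, 95% interval 3.81 to 5.46, limma adjusted p = 0.0017). The control mean lies just below the lower quartile of genes, and no detection call tells whether Gsdmc was expressed there at all. The log2 fold change is therefore a difference in probe set brightness, and the size of the change in RNA may be larger. Of the 7 measured gasdermins, 1 was called higher and 0 lower, against 0.943% of all genes called higher and 2.26% called lower, and nothing is read from that count since the list was made with it known. Their median log2 fold change was 0.05, against 0.02 over all genes. More cells with the Gsdmc transcript and more of it per cell cannot be told apart in these bulk samples.

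Ovol1 KO 2, with Xist near the DKO level, had Gsdmc at 7.15, and the DKO mean was 4.31 above it. Both DKO arrays lay above every other array, so the sign of this difference was fixed and it is no separate check. No control array had Xist near the DKO level, so DKO and control were not compared at like Xist. A fit with Xist as a covariate gave 4.05 (SE 0.60) for DKO against control, with adjusted p = 0.21 in limma. That covariate rests almost wholly on the difference between Ovol1 KO 1 and Ovol1 KO 2. The other 15 alternatives, including each array left out, kept the call of Gsdmc, with log2 fold changes from 4.15 to 5.09.

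The remaining Gsdmc copies did not follow Gsdmc. Gsdmc2 lay at 6.76 and 6.81 in DKO, against 7.22 and 7.19 in control. The groups did not overlap, and the log2 fold change of -0.42 (SE 0.19, 95% interval -0.87 to 0.03, limma adjusted p = 0.39) did not pass. Gsdmc4 lay at 6.26 and 6.34 in DKO and at 6.38 and 6.42 in control, the narrowest spread of any measured gasdermin, with a range of 0.16 over all 6 arrays. Its log2 fold change was -0.10 (SE 0.13, 95% interval -0.42 to 0.22, adjusted p = 0.86 in limma). The DKO and control arrays lay apart for 3 of the 7 gasdermins, against 44.6% of all genes. Gsdmc was the higher one (23.1% of all genes), and Gsdmc2 and Gsdmc4 were the lower ones (21.5% of all genes).

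Copies that share a probe set were read from those shared sets. The probe set annotated to Gsdmc2, Gsdmc3 and Gsdmc4 together lay at 6.87 and 6.83 in DKO, 7.17 and 7.01 in Ovol1 KO, and 6.90 and 6.90 in control. A second one, shared by Gsdmc2 and Gsdmc4, ran from 4.76 to 5.25 over the 6 arrays. The pseudogene Gsdmcl-ps lay at 7.51 and 7.79 in DKO, 7.06 and 7.64 in Ovol1 KO, and 7.35 and 7.55 in control. The pair of probe sets shared by Gsdmcl1, Gsdmcl2 and Gsdmcl-ps ran from 6.74 to 7.09. The largest difference between the DKO and control means among these 5 was 0.20, for Gsdmcl-ps, although a probe set shared by several copies cannot be assigned to any of them. Low expression and none are not separated at these levels.

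**Figure D2:**
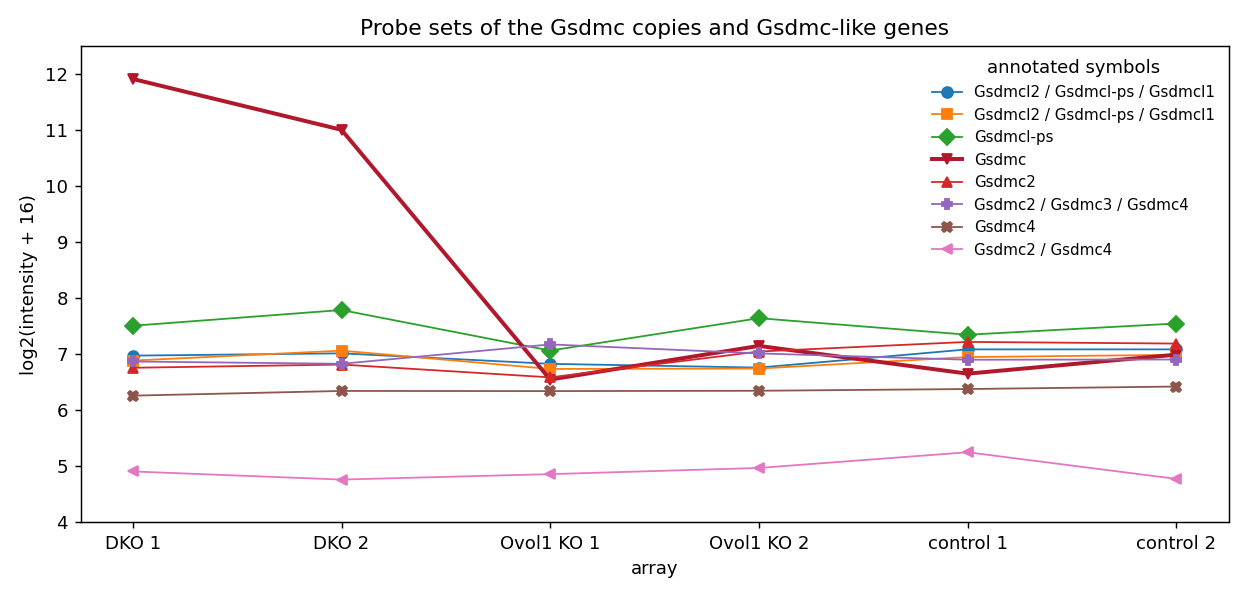
The lines give log2(intensity + 16) of the 8 probe sets annotated to Gsdmc copies and Gsdmc-like genes on each array, with the annotated symbols in the legend. The Gsdmc probe set reaches 11.91 and 11.00 in the DKO arrays, and the other 7 stay at or below 7.79 on every array.

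The Gsdma copies showed no such difference between DKO and control. Gsdma lay at 11.00 and 10.94 in DKO, against 10.52 and 11.32 in control, so that the control arrays enclosed both DKO arrays. Its log2 fold change was 0.05 (SE 0.28, 95% interval -0.62 to 0.73, limma adjusted p = 0.97). Gsdma2 lay at 8.95 and 8.94 in DKO and at 8.50 and 9.27 in control, again with the DKO arrays inside the control range. Gsdma3 lay at 7.78 and 8.01 in DKO and at 7.64 and 8.02 in control. The log2 fold changes of Gsdma2 and Gsdma3 were 0.05 and 0.07, with 95% intervals of -0.70 to 0.81 and -0.42 to 0.55. Set beside each other, the Gsdma copies differed by 0.05 to 0.07 in log2 units between DKO and control, Gsdmc by 4.64, and Gsdmc2 and Gsdmc4 by -0.42 and -0.10.

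Gsdmd, the gasdermin that inflammatory caspases cut, lay at 8.05 and 8.26 in DKO, 7.52 and 8.40 in Ovol1 KO, and 7.56 and 8.26 in control. Replicate 2 was above replicate 1 in every group, by 0.21 in DKO, 0.88 in Ovol1 KO and 0.70 in control. The group means differed by less than the last 2 of these gaps, with a log2 fold change between DKO and control of 0.25 (SE 0.35, 95% interval -0.57 to 1.07, limma adjusted p = 0.86). The gasdermin family also includes Gsdme, which caspase 3 cuts, and Pjvk, known from hearing. Gsdme lay at 7.56 and 7.98 in DKO and at 7.84 and 7.80 in control on its brighter probe set. Pjvk lay at 7.91 and 8.49 in DKO, 7.50 and 7.60 in Ovol1 KO, and 7.85 and 7.73 in control. Neither passed in any comparison.

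**Figure D3:**
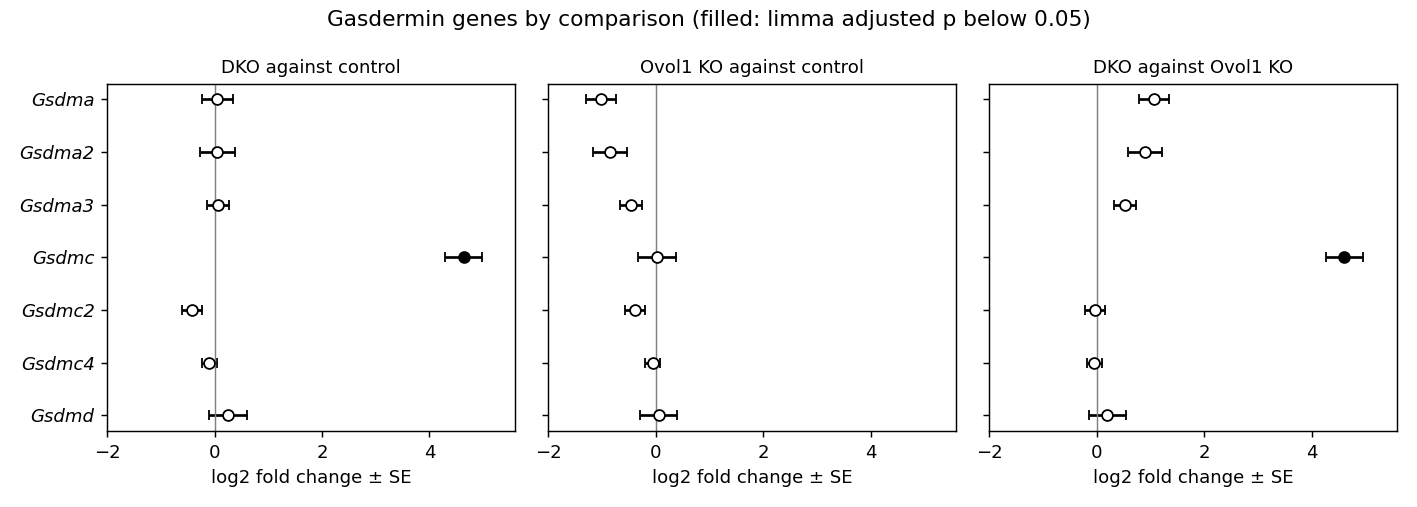
The points give the log2 fold change of each measured gasdermin with its SE from the limma fit over all genes, in 3 panels for DKO against control, Ovol1 KO against control and DKO against Ovol1 KO, and filled points have an adjusted p below 0.05. Gsdmc is filled in the first panel (4.64) and in the last (4.61), while the Gsdma copies lie left of 0 in the middle panel and right of 0 in the last.

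Between Ovol1 KO and control keratinocytes, the Gsdma copies were lower in both Ovol1 KO arrays, but no gasdermin passed the test. Gsdma lay at 9.69 and 10.12 in Ovol1 KO, against 10.52 and 11.32 in control. In the deposited linear intensities this was 825 and 1105 in Ovol1 KO, against 1474 and 2544 in control. Gsdma2 lay at 7.72 and 8.36 in Ovol1 KO, against 8.50 and 9.27 in control. Gsdma3 lay at 7.26 and 7.46 in Ovol1 KO, against 7.64 and 8.02 in control. For all 3 copies both Ovol1 KO arrays were below both control arrays. The log2 fold change was -1.01 for Gsdma (SE 0.28, 95% interval -1.69 to -0.34, limma unadjusted p = 0.0094). It was -0.85 for Gsdma2 (SE 0.32, 95% interval -1.60 to -0.09) and -0.46 for Gsdma3 (SE 0.20, 95% interval -0.95 to 0.02).

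Adjusted over all genes, 0 of the 7 gasdermins passed in limma (adjusted p = 1 for each), and 2, Gsdma and Gsdma2, had an unadjusted p below 0.05. Over all genes 0 passed as well (0%), and 162 of 19938 had an unadjusted p below 0.05. Groups that do not overlap were found for 5 of the 7 gasdermins, all lower in Ovol1 KO, against 24.1% of all genes, or 18.3% when only lower ones are counted. The Gsdma copies, which are among these 5, moved together and do not count as separate cases. The median log2 fold change of the gasdermins was -0.39, against -0.06 over all genes. By replicate number Gsdma differed by -0.83 in replicate 1 and -1.20 in replicate 2. Ovol1 KO 1, of like Xist level to the control arrays, lay 1.23 below the control mean for Gsdma. The lack of overlap between the groups fixed the signs of these differences, so they are no separate checks. With single arrays left out the log2 fold change of Gsdma ran from -1.41 without control 1 to -0.61 without control 2. Gsdmc lay at 6.55 and 7.15 in Ovol1 KO, against 6.65 and 6.99 in control, so that the Ovol1 KO arrays enclosed both control arrays. Gsdmc differed by 0.03 in log2 units (SE 0.35, 95% interval -0.80 to 0.85). Gsdmc2 lay at 6.59 and 7.05 in Ovol1 KO, against 7.22 and 7.19 in control, a log2 fold change of -0.39 (SE 0.19). Gsdmc4 and Gsdmd differed by -0.06 and 0.05.

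Between DKO and Ovol1 KO keratinocytes, Gsdmc rose again and the Gsdma copies were higher in both DKO arrays without passing. By their labels these groups share the loss of Ovol1 and differ in Ovol2 and in the K14-Cre transgene. Ovol1 KO 1 also differs from the DKO arrays in Xist. This comparison shares arrays with each of the comparisons above. Gsdmc lay at 11.91 and 11.00 in DKO, against 6.55 and 7.15 in Ovol1 KO. The log2 fold change was 4.61 (SE 0.35, 95% interval 3.78 to 5.44, limma adjusted p = 0.0021), again against levels that may be background. Of the 7 measured gasdermins 1 was called higher and 0 lower, against 0.657% and 1.49% of all genes. The call of Gsdmc held in all 16 alternatives run, at 4.13 to 5.06, the Xist covariate among them (4.30, SE 0.43, adjusted p = 0.037 in limma).

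Gsdma lay at 11.00 and 10.94 in DKO, against 9.69 and 10.12 in Ovol1 KO, a log2 fold change of 1.07 (SE 0.28, 95% interval 0.39 to 1.74, limma adjusted p = 0.145). Gsdma passed when control 1 or control 2 was left out (adjusted p = 0.025 and 0.029) or when only the 4 DKO and Ovol1 KO arrays were fitted (adjusted p = 0.029), with the same log2 fold change. The control arrays lay 0.80 apart for Gsdma. The same settings called 738, 734 and 738 genes in all, against 429 with all 6 arrays. Gsdma2 lay at 8.95 and 8.94 in DKO, against 7.72 and 8.36 in Ovol1 KO, and Gsdma3 at 7.78 and 8.01 in DKO, against 7.26 and 7.46 in Ovol1 KO. Their log2 fold changes were 0.90 (SE 0.32, adjusted p = 0.28) and 0.53 (SE 0.20, adjusted p = 0.33). Groups did not overlap for 4 of the 7 gasdermins, against 42.2% of all genes. All 4, Gsdmc and the Gsdma copies, were higher in DKO, as were 26.1% of all genes. Gsdmc2, Gsdmc4 and Gsdmd differed by -0.03, -0.04 and 0.20 in log2 units, with 95% intervals of -0.48 to 0.42, -0.36 to 0.27 and -0.63 to 1.02.

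Among themselves the Gsdma copies moved together, while the probe sets of Gsdmc2 and Gsdmc4 did not rise with Gsdmc in DKO. Over the 6 arrays Pearson's r was 0.987 between Gsdma and Gsdma2, 0.959 between Gsdma and Gsdma3 and 0.953 between Gsdma2 and Gsdma3. It was -0.417 between Gsdmc and Gsdmc2, -0.719 between Gsdmc and Gsdmc4 and 0.672 between Gsdmc2 and Gsdmc4. Between Gsdma and Gsdmc it was 0.504. Gsdmc2 and Gsdmc4 ranged over only 0.63 and 0.16 log2 units, at levels that may be background. Neither opposite nor shared movement of these copies is therefore read from their r values. All these r values describe 6 arrays in 3 groups, which share their RNA pools, and carry no test. Close copies may share probes, and how far the Gsdma probe sets read each other's transcripts was not tested. The order of the groups for all 3 Gsdma copies put the Ovol1 KO mean lowest, with the DKO and control means 0.05 to 0.07 apart, well within the control spread of 0.38 to 0.80.

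By likeness over the 6 arrays, among genes other than the gasdermins whose group means spanned at least 1 log2 unit, Gsdmc was nearest to Ggct, Pou2f3, B3galnt1, Nod1 and Bcam, with Pearson's r of 0.9987, 0.9977, 0.9968, 0.9966 and 0.9965. Pou2f3, a POU-domain transcription factor of differentiating keratinocytes, lay at 11.84 and 11.15 in DKO, 6.78 and 6.997 in Ovol1 KO, and 6.72 and 6.83 in control. Nod1, a cytosolic sensor of bacterial peptidoglycan, lay at 9.45 and 9.06 in DKO, 7.30 and 7.57 in Ovol1 KO, and 7.26 and 7.27 in control. Ggct encodes gamma-glutamylcyclotransferase of glutathione breakdown, B3galnt1 a glycosyltransferase and Bcam a laminin-binding adhesion molecule. In each of these 5 the DKO arrays were above the other 4, and DKO 1 was above DKO 2 as for Gsdmc. Choosing genes by r over the same arrays favours this pattern, so it is no separate result.

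Leaving out the gasdermins themselves and under the same span limit, Gsdma was nearest to Alox12b, Stac2, Lgi2, Phospho1 and Acer1, at lower r of 0.8872, 0.8585, 0.8292, 0.8230 and 0.7890. Alox12b, a lipoxygenase of the epidermal water barrier, lay at 11.26 and 10.46 in DKO, 7.69 and 8.69 in Ovol1 KO, and 8.52 and 10.34 in control. Acer1, an alkaline ceramidase of the epidermis, lay at 9.26 and 8.74 in DKO, 6.91 and 7.64 in Ovol1 KO, and 7.63 and 8.12 in control. For both genes Ovol1 KO 1 was the lowest array, as for Gsdma, but unlike Gsdma they were higher in DKO 1 than in any other array.

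**Figure D4:**
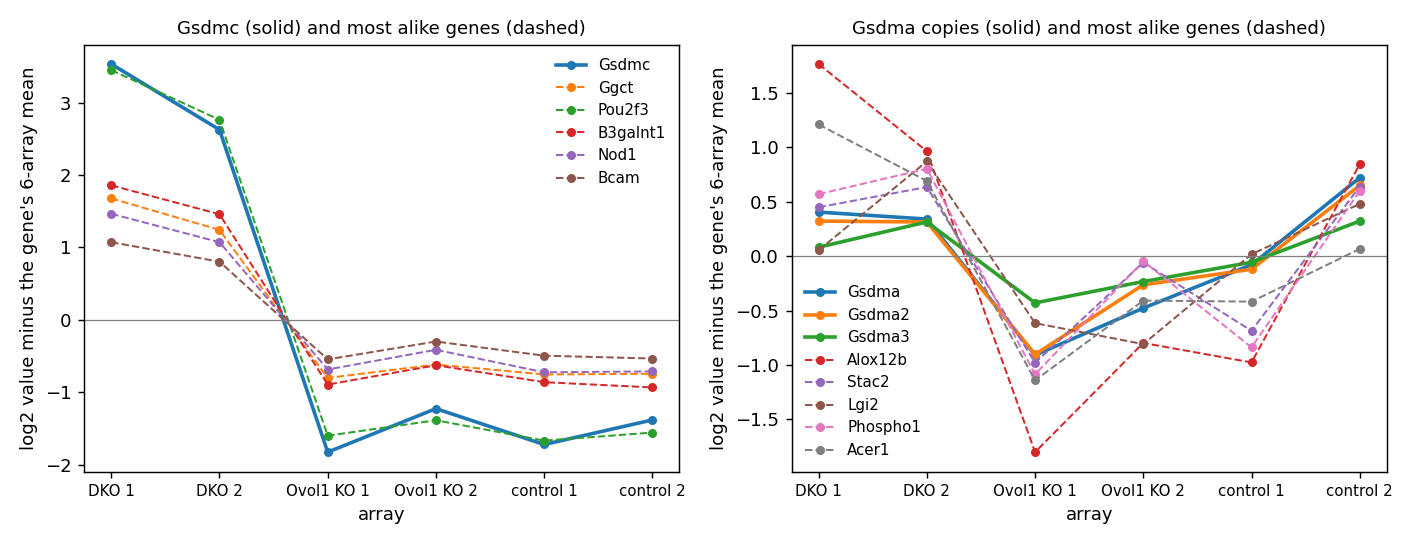
Each line gives a gene's log2 value on the 6 arrays minus its mean over them, with Gsdmc (left panel) and the 3 Gsdma copies (right panel) as solid lines and the 5 most alike genes of each as dashed lines. The Gsdmc panel splits the DKO arrays from the other 4, while the Gsdma copies are lowest in the Ovol1 KO arrays and replicate 2 lies above replicate 1 in control and Ovol1 KO.

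Genes beside the gasdermins on the chromosome were read as a comparison. The 3 nearest measured genes on either side of the Gsdma, Gsdmc and Gsdmd loci gave 18 neighbours, and 0 of them passed in any comparison by limma. An unadjusted p below 0.05 was reached by 2 between DKO and control, 0 between Ovol1 KO and control, and 4 between DKO and Ovol1 KO. Among all genes the shares were 14.5%, 0.813% and 13.3%, so counts of this size among 18 neighbours are read as no result. Around the Gsdmc locus (Pvt1, Macroh2a3, Myc, Cyrib, Asap1 and Adcy8) the log2 fold change between DKO and control ran from -0.16 to 0.34, against 4.64 for Gsdmc. Around the Gsdma locus (Lrrc3c, Ormdl3, Zpbp2, Psmd3, Csf3 and Med24) it ran from -1.85 to 0.52. The value of -1.85 was that of Csf3, the granulocyte colony-stimulating factor gene, with 4.98 and 4.81 in DKO and 7.30 and 6.18 in control (SE 0.38, limma adjusted p = 0.055). Csf3 passed without control 2 (log2 fold change -2.41), with an offset of 1 (-2.63), without quantile normalization and with the replicate number as a block. Ormdl3, a regulator of sphingolipid synthesis, lay at 9.41 and 9.30 in DKO, 8.60 and 8.70 in Ovol1 KO, and 8.86 and 8.82 in control. Its log2 fold change was 0.71 between DKO and Ovol1 KO (SE 0.17, adjusted p = 0.12 in limma) and -0.19 between Ovol1 KO and control (SE 0.17).

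Genes that act with gasdermins were read from 5 lists, with 49 measured members in all. Of these 2 rose and 2 fell between DKO and control, or 8.16%, against 3.2% of all genes, and 45 did not pass. Between DKO and Ovol1 KO 1 rose and 1 fell, or 4.08%, against 2.15% of all genes. Between Ovol1 KO and control 0 of the 49 passed by limma, and 0 reached an unadjusted p below 0.05. The median log2 fold change of the 49 between DKO and control was -0.06, against 0.02 over all genes.

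Of the 8 measured proteases that cut gasdermins 0 passed between DKO and control by limma, and 0 reached an unadjusted p below 0.05. Casp8, the caspase that cuts human GSDMC, lay at 11.54 and 11.84 in DKO, 11.76 and 12.01 in Ovol1 KO, and 11.93 and 12.04 in control. Between DKO and control Casp8 differed by -0.30 in log2 units (SE 0.15, limma adjusted p = 0.45). Casp6 lay at 11.34 and 10.72 in DKO and at 10.26 and 10.48 in control (log2 fold change 0.66, SE 0.35). Casp1 and Casp4, which cut GSDMD and were picked out with their values in view, did not pass. Casp4 lay at 8.17 and 9.16 in DKO, 6.43 and 9.86 in Ovol1 KO, and 6.82 and 9.25 in control. Casp1 lay at 8.16 and 7.85 in DKO, 5.80 and 7.998 in Ovol1 KO, and 6.04 and 7.33 in control. As with Gsdmd, replicate 2 was above replicate 1 for Casp1 in control and Ovol1 KO and for Casp4 in all 3 groups.

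Of the 14 measured inflammasome sensors and adaptors 0 passed between DKO and control by limma, while 2 reached an unadjusted p below 0.05, a share no larger than the 14.5% of all genes. These are described by their values alone. Nlrp10, a sensor family member expressed in epidermis, lay at 6.96 and 5.58 in DKO, 7.15 and 8.16 in Ovol1 KO, and 7.67 and 8.80 in control, with a log2 fold change of -1.96 between DKO and control (SE 0.57, limma adjusted p = 0.16). Aim2, a sensor of cytosolic DNA, lay at 6.08 and 6.17 in DKO, against 6.48 and 7.46 in control (log2 fold change -0.84, SE 0.32, adjusted p = 0.28). Aim2 passed without control 1 (log2 fold change -1.33, adjusted p = 0.038).

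Of the 11 cytokines that leave cells through gasdermin pores or lysis, with their antagonists, 2 rose and 1 fell between DKO and control. Over all genes 0.943% were called higher and 2.26% lower. A limma unadjusted p below 0.05 was reached by 5 of the 11, against 14.5% of all genes. Il33, a nuclear alarmin, lay at 12.09 and 11.95 in DKO, 9.28 and 9.08 in Ovol1 KO, and 8.29 and 8.98 in control. It rose by 3.38 in log2 units (SE 0.25, limma adjusted p = 0.0017), and by 2.84 between DKO and Ovol1 KO (SE 0.25, adjusted p = 0.0035). Il18, a substrate of caspase 1, lay at 10.64 and 10.74 in DKO, 9.28 and 10.02 in Ovol1 KO, and 8.97 and 9.23 in control. It rose by 1.59 (SE 0.27, limma adjusted p = 0.030), a call lost without DKO 1, DKO 2 or control 1 at log2 fold changes of 1.64, 1.54 and 1.46. Il1a, an alarmin of the interleukin 1 family, lay at 7.33 and 9.38 in DKO, 12.39 and 11.06 in Ovol1 KO, and 12.62 and 11.84 in control. Il1a fell by 3.87 in log2 units between DKO and control (SE 0.70, adjusted p = 0.038 in limma). This call was lost without DKO 1 (-2.85) and, at an unchanged value, without either Ovol1 KO array, with only the 4 arrays compared and under robust eBayes (adjusted p = 0.14). Between DKO and Ovol1 KO neither Il18 (log2 fold change 1.04, SE 0.27, limma adjusted p = 0.14) nor Il1a (-3.37, SE 0.70, adjusted p = 0.072) passed. Il1b, the classic cargo of GSDMD pores, picked out for that role, lay between 6.36 and 6.63 on all 6 arrays. The Il33, Il18 and Il1a calls between DKO and control were also lost with Xist as a covariate, at 3.60, 0.83 and -2.57, as was that of Il33 between DKO and Ovol1 KO (adjusted p = 0.051 in limma).

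Of the 10 genes of membrane rupture and repair 0 rose and 1 fell between DKO and control, against 0.943% and 2.26% of all genes. A limma unadjusted p below 0.05 was reached by 3 of the 10, against 14.5% of all genes. The gene that fell was Chmp4c, a subunit of the ESCRT-III complex that can shed damaged membrane. It lay at 9.21 and 9.42 in DKO, 11.02 and 10.58 in Ovol1 KO, and 11.21 and 10.73 in control. The difference from control was -1.65 in log2 units (SE 0.24, limma adjusted p = 0.017). The difference from Ovol1 KO was -1.48 (SE 0.24, adjusted p = 0.031 in limma). The first call was lost without DKO 1 (-1.55) or DKO 2 (-1.76), and the second with any 1 of the 4 arrays compared left out (-1.70 to -1.26). With Xist as a covariate both were lost, at -1.21 and -1.25. Chmp2a, of the same complex, lay at 11.70 and 11.56 in DKO and at 12.11 and 11.99 in control (log2 fold change -0.42, SE 0.11, adjusted p = 0.12 in limma). Ninj1, which completes membrane rupture once gasdermin pores have formed, was picked out with its values in view and lay at 10.21 and 10.42 in DKO and at 10.07 and 10.25 in control. Of the 6 measured genes of other programmed cell death 0 passed by limma, while 2 reached an unadjusted p below 0.05, as did 14.5% of all genes. These were Cflar, which restrains caspase 8, at 9.06 and 8.73 in DKO and 9.93 and 9.46 in control, and Bak1, a mitochondrial pore protein, at 10.94 and 11.11 in DKO and 11.34 and 11.46 in control.

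**Figure D5:**
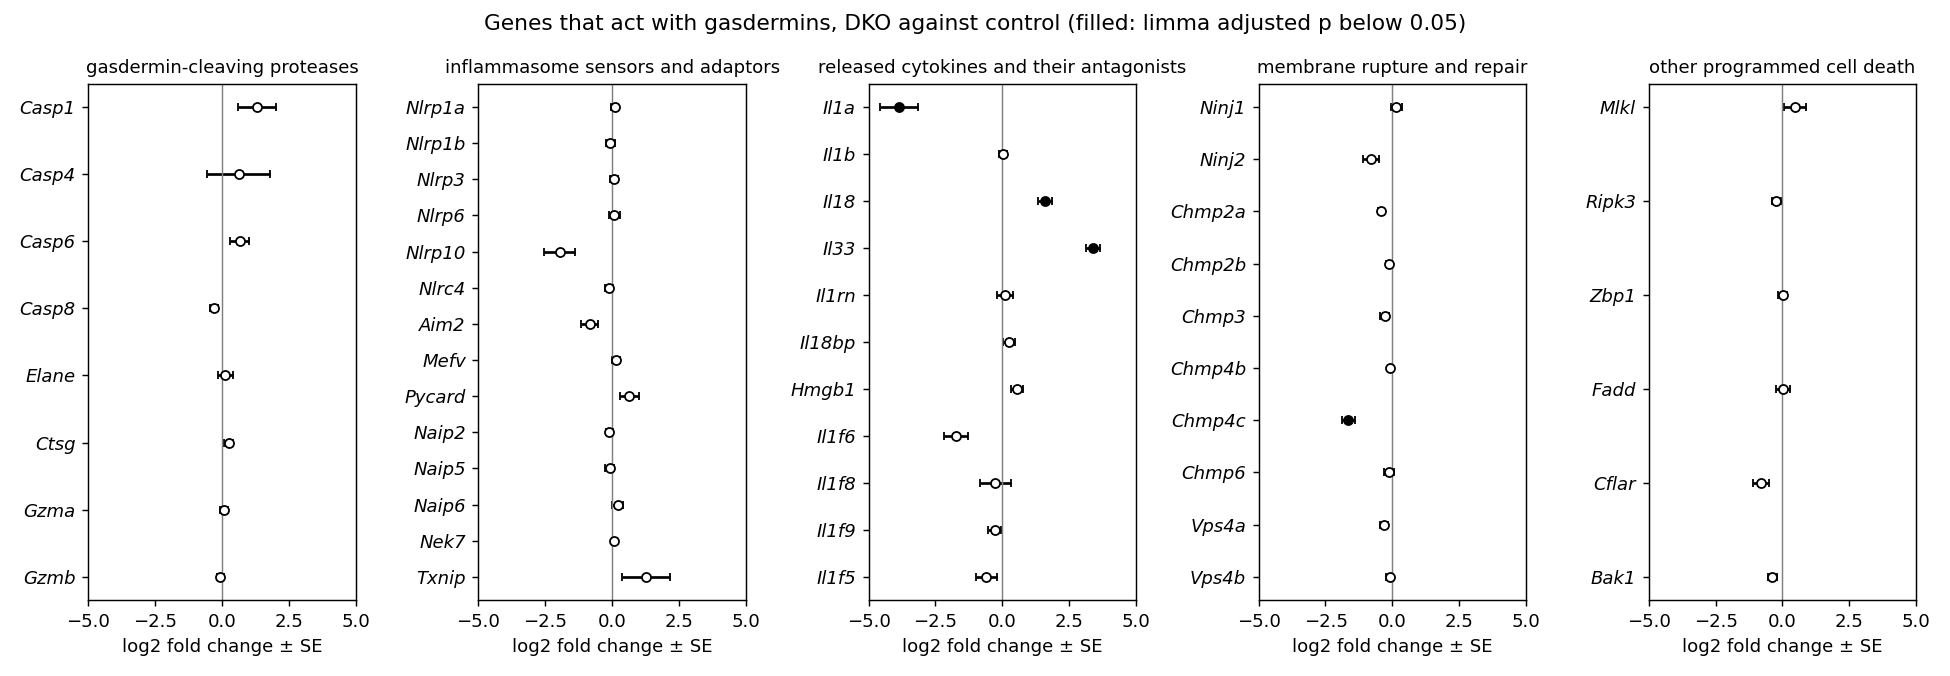
The points give the log2 fold change between DKO and control, with its SE, of the 49 measured genes in 5 lists of genes that act with gasdermins, and filled points have a limma adjusted p below 0.05. Il33 (3.38) and Il18 (1.59) are filled on the right of 0 and Il1a (-3.87) and Chmp4c (-1.65) on the left.

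Markers of cell types were read on the same arrays, beside shares of 0.943% of all genes called higher and 2.26% called lower between DKO and control. Of 8 keratinocyte markers 2 rose and 0 fell, namely the differentiation keratins Krt1 and Krt10. Krt10 lay at 13.93 and 13.01 in DKO, 9.28 and 9.48 in Ovol1 KO, and 9.77 and 8.89 in control, so that it separated the same arrays as Gsdmc. Of 7 fibroblast markers 0 rose and 1, Pdgfra, fell, and their summed log2 level was 11.67 and 12.05 in DKO, 11.03 and 10.54 in Ovol1 KO, and 11.16 and 10.73 in control. Of 7 sebaceous gland markers 0 rose and 1, Cidea, fell, with summed levels of 10.04 and 10.21 in DKO, 11.99 and 11.44 in Ovol1 KO, and 12.12 and 11.20 in control. Of 8 hair follicle markers 0 rose and 1, Padi3, fell, with sums of 10.35 and 10.34 in DKO, 10.52 and 10.63 in Ovol1 KO, and 10.70 and 10.67 in control. These 3 sums, and that of the keratinocyte markers at 16.50 and 16.01 in DKO, 15.58 and 15.62 in Ovol1 KO, and 15.57 and 15.61 in control, separate DKO from the other arrays as Gsdmc does, and their part in the result was not tested. The sums weigh bright probe sets most, and the lists did not move as wholes. In the fibroblast list Thy1 differed by 2.11 between DKO and control, which did not pass, Dcn by 0.83, Col1a1, Col1a2 and Col3a1 by 0.12 to 0.20, Lum by -0.20 and Pdgfra by -1.06. In the sebaceous list Cidea differed by -2.88 and Scd3, which did not pass, by -1.11, while the other 5 differed by 0.02 to 0.15. In the keratinocyte list Krt1 and Krt10 differed by 4.15 and 4.14 and the other 6 by -0.16 to 0.75. Of 9 leukocyte markers 0 passed by limma, and 0 reached an unadjusted p below 0.05, with sums from 11.99 to 12.84, and the pan-leukocyte gene Ptprc, picked out for that role, lay between 6.69 and 6.97. Of 7 melanocyte markers 0 passed, 1 had an unadjusted p below 0.05, and their sums split by replicate number, at 10.89, 12.66 and 12.28 in replicate 1 of DKO, Ovol1 KO and control and at 10.15, 10.28 and 10.38 in replicate 2.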

How the data were processed

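The authors deposited 1 linear intensity per probe set and array. PLIER 2.0 and Affymetrix Expression Console 1.1.1 appear in the submitters' processing notes, without a role. The sources used here do not give background correction, normalization or genome build. From the 35556 probe sets, log2(intensity + 16) was taken. Array quartiles spread by 0.218, above a limit of 0.2, which led to quantile normalization. The 21789 probe sets with 1 symbol gave 19938 genes, the brightest probe set standing for each, while 1621 carried several symbols and 12146 none here. RefSeq (GRCm38.p6) matched 21698 by Entrez identifier and changed 0 symbols.

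All 6 arrays entered 1 limma model (limma 3.58.1, R 4.3.3) that estimates each group's mean and uses eBayes with a trend. Calls need a Benjamini-Hochberg adjusted p, taken across every gene, below 0.05. The spread per gene is pooled over the 3 groups (3 residual and 3.89 prior degrees of freedom), so p-values rest on spread between pools of 2 mice. The number of arrays limits the precision. The shared probe sets were described by their values. Intervals are at 95%.

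The gasdermins, the lists and the tests were chosen with earlier results of these data known. Named besides the gasdermins were their family, the called members of each pathway list with the 2 smallest p between DKO and control, the locus neighbours and the 5 most alike genes. Pathway genes named outside that rule are marked. Cell type markers were named with their values in view. Simulated data were used to test the procedure. The alternatives changed the offset (1 or 64), skipped quantile normalization, dropped the dimmest 30% of genes, made eBayes robust or trendless, averaged probe sets, fitted only the 4 arrays compared, blocked on replicate number, added Xist as a covariate or omitted 1 array at a time.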

Additional observations from a re-analysis of the deposited data

How the results depend on the processing

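Of the 16 alternatives per comparison, those below moved a count by over 1.5 times. The cause was not tested. For DKO against control, 639 genes called became 1069 with the replicate number as a block and 8 with Xist as a covariate, and ran from 258 (without DKO 1; 309 without DKO 2) to 735 (without control 2). The gasdermins called went to 0 with Xist, the pathway genes from 4 to 0 with Xist and between 1 (without DKO 1) and 5 (without control 2). Among locus neighbours 1, Csf3, was called with an offset of 1, with the values as deposited and with the block, and 0 to 1 with single arrays left out (1 without control 2). For Ovol1 KO against control, 0 genes became 0 to 4 with single arrays left out (4 without Ovol1 KO 1). For DKO against Ovol1 KO, 429 genes became 738 with only the 4 arrays compared, 805 with the block and 73 with Xist, and ran from 88 (without Ovol1 KO 1) through 195 (without DKO 1), 217 (without Ovol1 KO 2), 232 (without DKO 2) and 734 (without control 2) to 738 (without control 1). The gasdermins called were 2 with only the 4 arrays compared and 1 to 2 with single arrays left out, Gsdma being the addition. The pathway genes went from 2 to 0 with Xist and ran from 1 (without DKO 1 or either Ovol1 KO array) to 3 (without either control array). Without the dimmest 30% of genes, Gsdmc2 and Gsdmc4 were not tested.

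Replicate numbers are not stated to mark a litter or day, and each comparison has 2 pairs. Deviations of same-numbered arrays correlated across genes at 0.69 between Ovol1 KO and control, 0.15 between DKO and control and 0.09 between DKO and Ovol1 KO. With the replicate block no gasdermin call changed. Il1a lost its call between DKO and control there (adjusted p = 0.052 in limma). Signs of dim or flat gasdermins (Gsdmd, Gsdmc in Ovol1 KO against control, the Gsdma copies in DKO against control) changed in 2 to 3 alternatives each. Those of Gsdmc2 in DKO against Ovol1 KO and Gsdmc4 in Ovol1 KO against control changed in 1 each, and none of these was called.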
